A study of Mus musculus with 2 samples.

Results

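The genes described here are 7 of the 19059 genes measured in mouse skin, and each encodes a secreted protein of antimicrobial defence or a close relative of one. They are the β-defensins Defb1 and Defb6, the peptidoglycan recognition proteins Pglyrp1 and Pglyrp4, the WAP-domain proteins Wfdc21 and Slpi, and the lipocalin Lcn2. They were picked with their levels and their knockout over wildtype ratios in these same libraries already known, so the values below are a description and no test is attached to them.

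Skin cells came from a 6 mm dorsal punch of 1 wildtype C57BL/6J mouse and 1 Eppk1-/- mouse on the C57BL/6J background, neither of them treated. Eppk1-/- mice lack epiplakin, a large cytoskeletal linker protein of epithelial cells, in every tissue. Age and sex are not given in the sources used here. RNA was measured in fixed, dissociated cells with paired probes for each gene (10x Genomics Flex), and probe pairs were counted by unique molecular identifiers (UMIs). With 1 library per genotype, a difference between genotypes cannot be told apart from one between 2 mice, 2 punches or 2 preparations.

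Epidermal keratinocytes are born in the basal layer and pass through the spinous and granular stages before they are shed. The upper hair follicle, the infundibulum, opens onto the skin surface and is lined by a similar epithelium. Both secrete small cationic peptides that damage microbial membranes, proteins that bind bacterial cell walls or iron carriers, and inhibitors that hold proteases in check. β-defensins are folded by disulfide bonds between 6 conserved cysteines, and WAP domains are likewise built around disulfide bonds. Much of this defence is low in resting skin and is induced by wounding, by microbes or by cytokines such as IL-17 and IL-22.

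The 3 shortest coding sequences among the 7 genes are shown so that their cysteine codons can be compared. They are the principal transcripts of GENCODE M21 on GRCm38, written 5′ to 3′ from the start to the stop codon, with cysteine codons in capitals.
Defb1: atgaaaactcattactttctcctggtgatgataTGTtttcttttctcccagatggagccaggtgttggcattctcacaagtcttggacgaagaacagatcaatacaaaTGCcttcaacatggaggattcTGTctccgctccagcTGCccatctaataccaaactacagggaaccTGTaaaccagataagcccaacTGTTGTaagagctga
Defb6: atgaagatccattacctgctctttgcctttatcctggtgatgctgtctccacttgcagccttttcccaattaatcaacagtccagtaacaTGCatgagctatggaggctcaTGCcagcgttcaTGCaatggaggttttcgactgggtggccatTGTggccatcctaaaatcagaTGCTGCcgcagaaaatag
Wfdc21: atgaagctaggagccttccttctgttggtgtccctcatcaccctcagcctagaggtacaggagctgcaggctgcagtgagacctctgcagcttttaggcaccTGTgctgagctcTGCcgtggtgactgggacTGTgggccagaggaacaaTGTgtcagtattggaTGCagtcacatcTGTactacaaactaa
Defb1 has 7 cysteine codons, 1 of them near the start, and Defb6 has 6. In both, the last 2 cysteine codons are adjacent. Wfdc21 also has 6, and none of them are adjacent.

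Defb1 lies at chr8:21776599-21795185 on the plus strand and Defb6 at chr8:19225478-19228209 on the same strand. Each has 2 exons, with coding sequences of 210 and 192 bases. Pglyrp1 lies at chr7:18884680-18890441 on the plus strand with 3 exons, and Pglyrp4 at chr3:90726911-90740514 on the plus strand with 8. Wfdc21 lies at chr11:83746940-83752642 on the plus strand. Both minus-strand genes are on chromosome 2, with Lcn2 at chr2:32384633-32387797 and Slpi at chr2:164354070-164356507. Slpi has 17 cysteine codons in a coding sequence of 396 bases.

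The wildtype library held 77638793 UMIs in 9179 cells and the Eppk1-/- library 65118304 UMIs in 8811 cells, of which 8875 and 8617 cells passed the filters, with medians of 4941 and 4992 UMIs. Cells were clustered without the 7 genes and without Eppk1, and clusters were named from marker genes, so that each class name means cells like that type. Keratinocytes numbered 5504 (62.02% of the wildtype cells) and 4057 (47.08% of the Eppk1-/- cells). The targeted gene, Eppk1, was measured at 2997 CPM (UMIs per 1000000 UMIs of the class) in wildtype keratinocytes against 795 CPM in those of the Eppk1-/- mouse, or −1.91 as a log2 ratio. Where its probes lie relative to the deletion is not given in the sources used here. The Eppk1 ratio differed between classes, at −4.08 in basal, −3.78 in spinous, −2.33 in infundibular and −1.11 in granular cells. Granular keratinocytes thus kept a high Eppk1 signal, at 7151 CPM (wildtype) and 3312 CPM (Eppk1-/-). Of the 19679 Eppk1 UMIs in Eppk1-/- keratinocytes, 15173 were granular. In the latest keratinocytes the Eppk1 level ran the other way, with 100 CPM in wildtype cells against 499.7 CPM in Eppk1-/- cells. No full cell barcode was shared, but 1211 droplet barcodes occurred in both libraries, which were pooled before droplets formed. All intervals below are exact at the 95% level and cover counting error only. Levels are compared between classes or libraries for 1 gene at a time, because genes differ in the number and efficiency of their probes.

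Defb1, an antimicrobial peptide that epithelia make without induction, was found mainly in granular and infundibular cells. Its level in the wildtype library was 462 CPM (448 to 476) in granular keratinocytes and 419.6 CPM (401 to 439) in the infundibulum, intervals that do not overlap. The unnamed keratinocyte sub-clusters 11, 7 and 2, described with Defb6 below, lay between the infundibular and spinous levels. Spinous keratinocytes held 83.4 CPM and the latest keratinocytes 83.2 CPM, which did not differ beyond their counting error. Basal keratinocytes were lower, at 34.6 CPM, and follicle bulge and germ cells lower still, at 10.99 CPM. In the Eppk1-/- library the order at the top was turned around. The infundibulum held 402 CPM (379 to 426) and granular keratinocytes 346 CPM (329 to 363). Of all Defb1 UMIs, 48.4% of those in the wildtype library and 41.7% of those in the Eppk1-/- library were in granular cells, and 22.1% and 30.6% in infundibular cells. Sub-cluster 2 held 7.14% and 7.63%, sub-cluster 7 3.93% and 2.87%, and sub-cluster 11 3.2% and 3.45%. Spinous cells held 6.46% and 4.5%.

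Over all keratinocytes, Defb1 reached 216 CPM (7885 UMIs) in wildtype against 146 CPM (3603 UMIs) in Eppk1-/- skin, a log2 ratio of −0.57 (−0.62 to −0.51). With the sub-clusters of both libraries weighted by wildtype cell shares it was −0.46, which is not past 0.5. The lower level was unevenly spread over the stages. Spinous keratinocytes held 83.4 CPM against 31.2 CPM, a log2 ratio of −1.41 (−1.68 to −1.17). Basal keratinocytes held 34.6 and 14.4 CPM, a log2 ratio of −1.26 (−1.64 to −0.90). The ratio was nearer to 0 in the cells with the highest levels. It was −0.42 (−0.50 to −0.33) in granular keratinocytes and −0.06 (−0.17 to 0.04) in the infundibulum, where the interval holds 0. Defb1 was also lower by at least 0.5 in sub-cluster 7, but not in sub-cluster 2. The classes themselves differed between libraries in stage markers. Granular markers summed to 28050 wildtype and 38116 Eppk1-/- CPM in granular cells and to 11896 and 21802 CPM in the infundibulum. In spinous cells they were lower in the Eppk1-/- library, at 1396 and 865 CPM. Spinous markers in that class were higher, at 25606 and 30651 CPM, and basal markers lower, at 9461 and 8525 CPM. Infundibular cells held 29982 and 25772 CPM of their own markers, and 11.9 and 1250 CPM of inner root sheath markers. The part of such differences in the class ratios of this and the other genes was not tested. Proliferating keratinocytes, at 61.4 and 30.4 CPM, had a ratio of −0.997 that rested on 58 and 25 UMIs. A cluster of 56 cells that was present in the Eppk1-/- library alone and stayed unnamed held 23 Defb1 UMIs, or 204 CPM, and is in none of these ratios.

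In granular keratinocytes the difference in Defb1 lay in the amount per cell as well as in the share of cells. Defb1 was present in 331 of the 349 wildtype granular cells and in 177 of the 201 Eppk1-/- ones, with medians of 10 and 6 UMIs in those cells. The median depth of granular cells was 23416 and 22539 UMIs. With every cell thinned to 2000 UMIs, Defb1 was present in 54.7% of the wildtype granular cells against 43.5% of the Eppk1-/- ones, and in 46.1% and 40.7% of infundibular cells. Fibroblasts, which are not a known source of Defb1, gave 1.47% and 0.54% after the same thinning, at median depths of 5900 and 5363 UMIs. Their Defb1 levels were 8.19 CPM (wildtype) and 3.48 CPM (Eppk1-/-), a ratio of −1.23 (−1.87 to −0.62). Macrophages held 27.4 and 10.2 CPM. The Defb1 signal in fibroblasts and macrophages was therefore lower in the Eppk1-/- library as well. In macrophages the 5 highest cells held 64.3% (wildtype) and 83.3% (Eppk1-/-) of it. Other classes outside keratinocytes were not alike in their UMIs, which are not scaled for depth here. T and NK cells held 15 and 1 and mast cells 13 and 1. Endothelial cells held 7 and 6, and an unnamed cluster led by Fcna and Lyve1 15 and 15. The part of such signal in the ratios of basal and spinous cells was not tested. The thinned Defb1 shares of spinous cells, 8.57% and 5.11%, were above the fibroblast shares in both libraries.

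**Figure D1:**
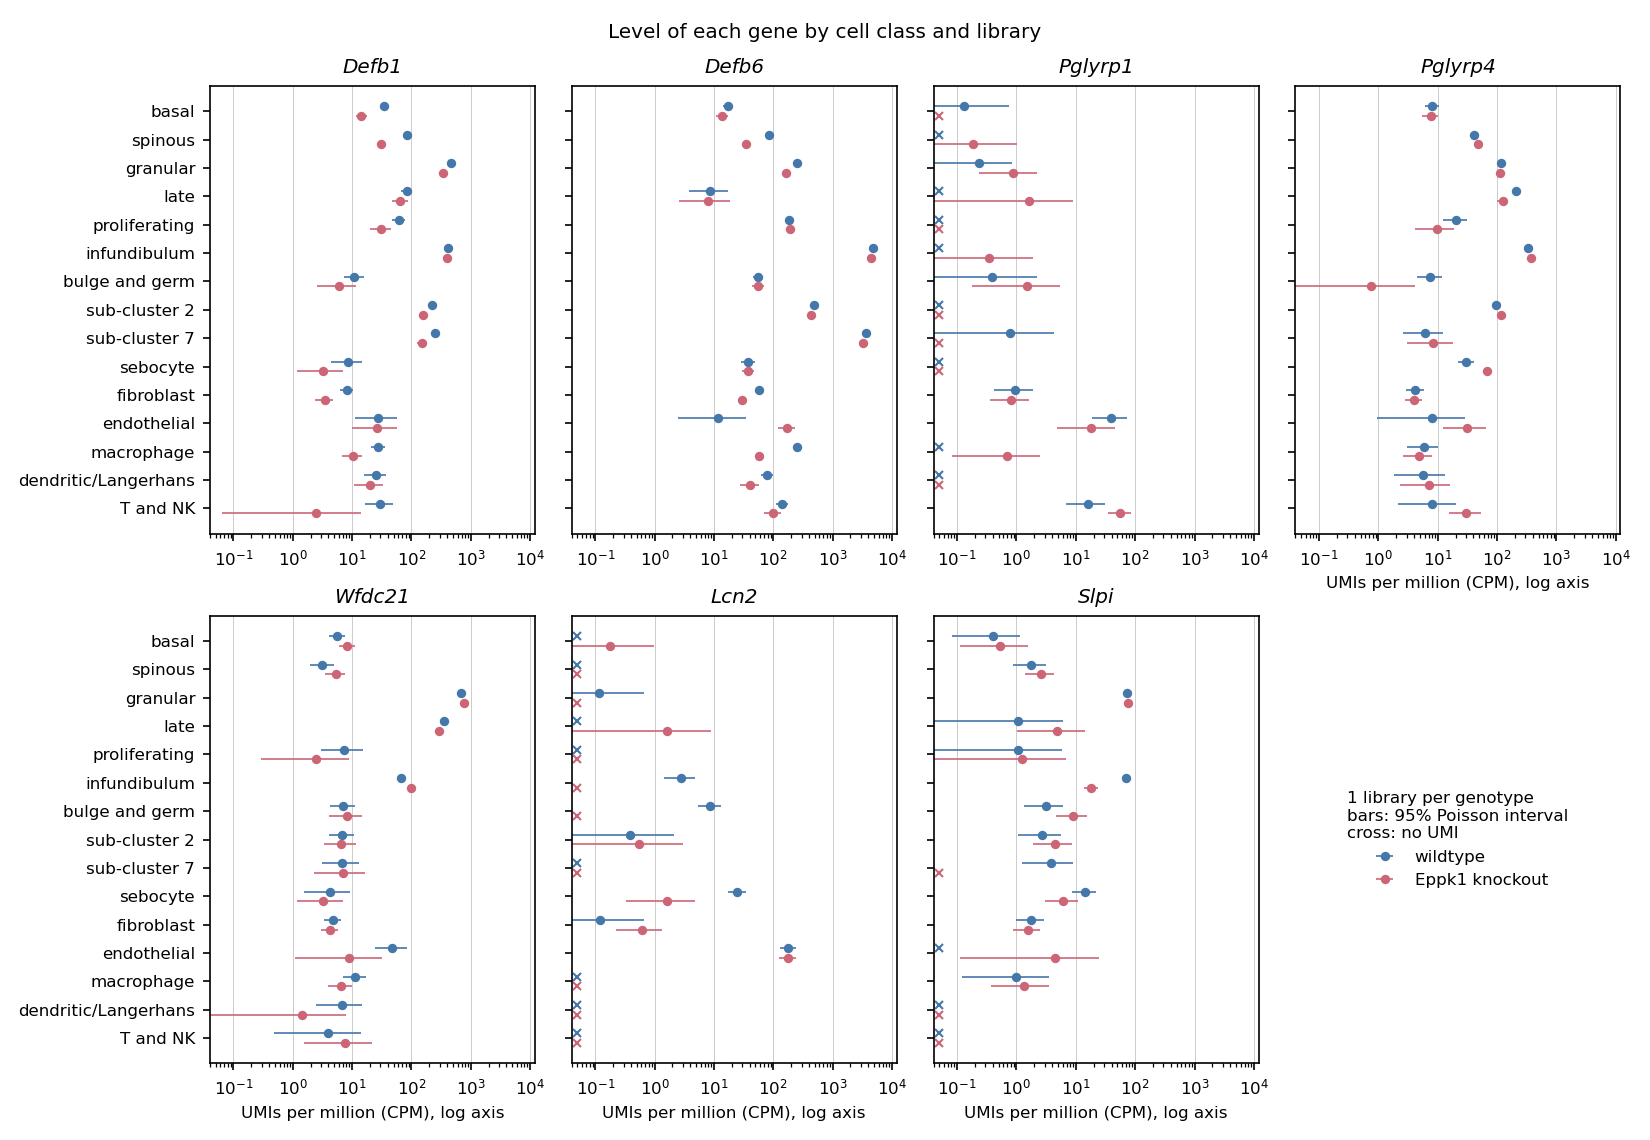
Level of each of the 7 genes in CPM (log axis) by cell class, for the wildtype (blue) and Eppk1-/- (red) library, with exact 95% Poisson intervals as bars and crosses where no UMI was found. Defb6 peaks in the infundibulum, at 4778 and 4382 CPM, while Wfdc21 peaks in granular keratinocytes, at 690 and 783 CPM.

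Defb6, a second β-defensin, was above all a gene of the upper hair follicle. Wildtype infundibular cells held 4778 CPM (4713 to 4844), and those of the Eppk1-/- mouse 4382 CPM (4306 to 4459). Keratinocyte sub-cluster 7, which carried markers of the basal layer, the infundibulum and the bulge and stayed unnamed, held 3669 and 3292 CPM. It was led by Pthlh, Megf6 and Aspn, with Lgr6, a stem cell marker of the upper follicle, among its 10 leading genes. Both classes together contained most of the Defb6 UMIs, with the infundibulum at 63.2% and 67.8% and sub-cluster 7 at 14.8% and 12.5%. Next came 2 unnamed classes, sub-cluster 11, which was led by the fibroblast genes Col1a1 and Col1a2 and carried markers of several cell types, at 599 and 448 CPM, and sub-cluster 2, led by Ccl2 and Fst, at 477 and 429 CPM. In the interfollicular epidermis of the wildtype library Defb6 was higher at each stage up to the granular, with 17.04 CPM in basal, 85.1 CPM in spinous and 255 CPM in granular keratinocytes, but only 8.64 CPM in the latest cells.

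The 2 libraries were close in Defb6 where the gene was high. The log2 ratio was −0.13 (−0.16 to −0.09) in the infundibulum and −0.16 (−0.23 to −0.08) in sub-cluster 7. It was 0.01 (−0.43 to 0.42) in bulge and germ cells, at 54.9 and 55.0 CPM. The interfollicular stages stood apart from this. Spinous keratinocytes held 34.1 CPM in the Eppk1-/- library, a ratio of −1.32 (−1.57 to −1.08). Granular keratinocytes held 166 CPM, a ratio of −0.62 (−0.74 to −0.50). Basal keratinocytes held 13.9 CPM, and their interval of −0.72 to 0.12 includes 0. Defb1 and Defb6 thus had their lowest ratio among the named keratinocyte classes in the same class, the spinous. For Defb1 the spinous and basal intervals overlap, so which of these classes was lowest is not resolved by the counts. Fibroblast levels of Defb6, given below, lay between those of basal and spinous cells in both libraries, with a ratio of −0.95. In spinous cells, 29.3% of the wildtype and 42.8% of the Eppk1-/- Defb6 UMIs were in the 5 highest cells. The part of signal from other cells in the basal and spinous ratios was not tested. Over all keratinocytes Defb6 was at 832 and 704 CPM, a ratio of −0.24 (−0.27 to −0.21). The 2 keratinocyte populations differed in makeup. With the sub-clusters of both libraries weighted by wildtype cell shares the ratio was −0.16. This weighting also gives deep sub-clusters less weight than summed UMIs do, and the part of makeup in the change was not tested.

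Defb6 was not in every infundibular cell. It was present in 448 of the 559 wildtype cells and 276 of the 391 Eppk1-/- cells, with a median of 20 UMIs per positive cell in both libraries. At 2000 UMIs per cell the shares were 70.0% and 62.4%, and in sub-cluster 7 they were 52.5% and 47.6%. In fibroblasts they were 2.77% and 1.68%. The highest single infundibular cell held 411 wildtype UMIs or 568 Eppk1-/- UMIs. UMIs per positive cell within the class thus covered more than 2 orders of magnitude, as the ranked cells show, without scaling for the depth of each cell.

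**Figure D2:**
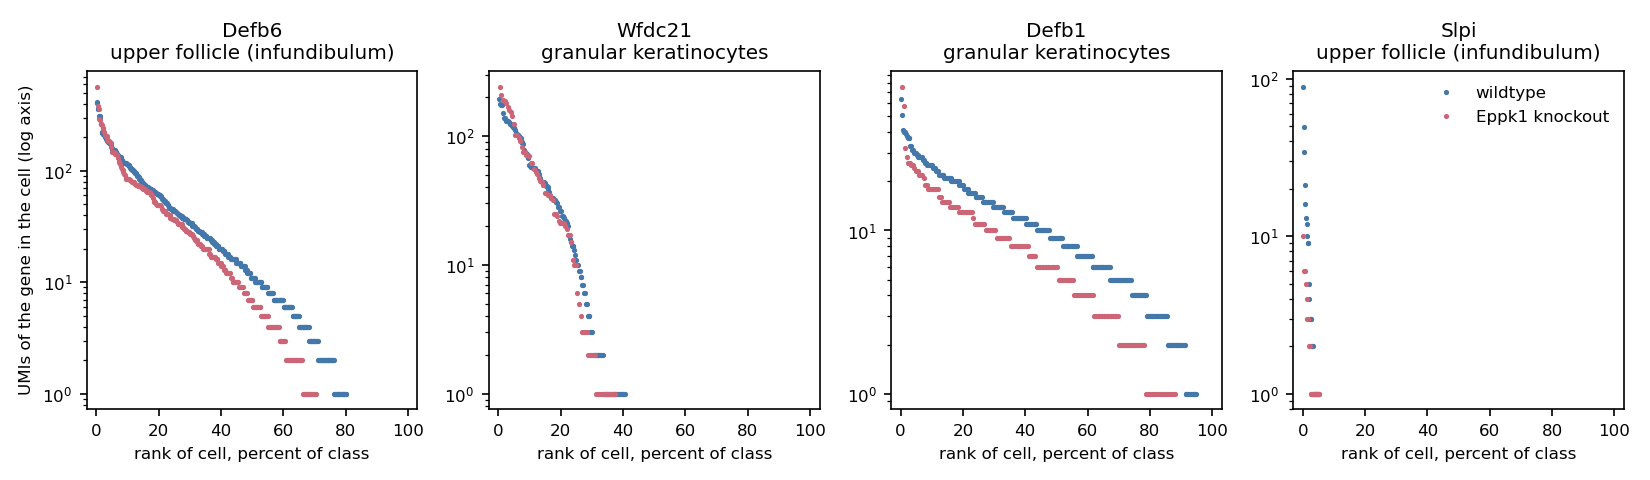
UMIs of a gene in each cell (log axis) against the rank of the cell as a percentage of its class, for cells with at least 1 UMI, wildtype in blue and Eppk1-/- in red. The Defb1 curve of Eppk1-/- granular cells lies under the wildtype curve over most ranks (medians of 6 and 10 UMIs in positive cells), the Wfdc21 curves run together, and Slpi in the infundibulum rests on 28 and 21 cells.

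Outside keratinocytes, Defb6 UMIs were concentrated in a few cells. Wildtype macrophages held 256 CPM and Eppk1-/- macrophages 56.9 CPM, but the 5 highest cells carried 74.7% and 84.4% of those UMIs. Without Scrublet doublets the log2 ratio of −2.17 became −0.20. That removal took 456 wildtype and 217 Eppk1-/- cells by unlike rules, so the 2 libraries were not treated alike. In mast cells 88 of the 90 wildtype UMIs were in 1 cell. Fibroblasts held 58.1 and 30.0 CPM, a ratio of −0.95 (−1.17 to −0.74). Endothelial cells held 3 and 38 UMIs. Defb6 was detected in these cell types at levels far under those of the infundibulum, and whether the UMIs were made there was not tested.

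**Figure D3:**
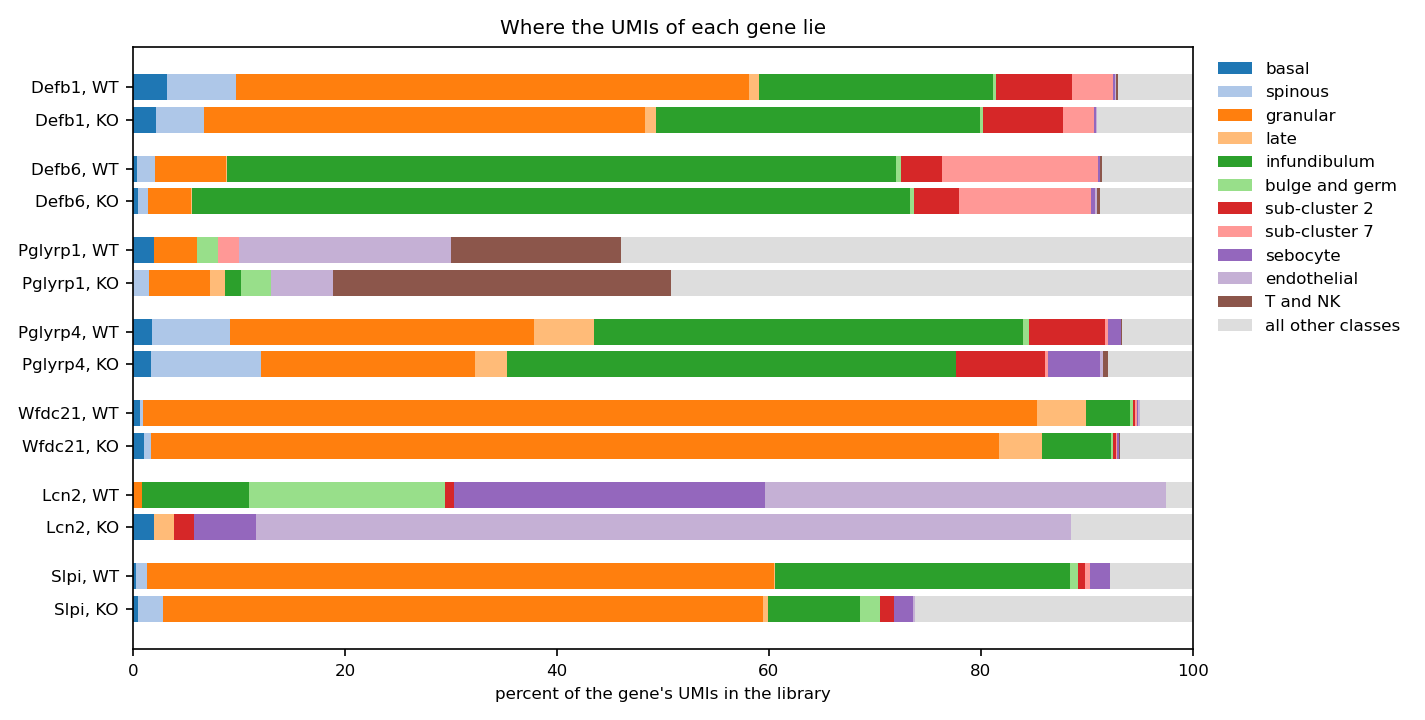
Share of each gene's UMIs (percent of the gene's total in the library) by cell class, with 1 bar per gene and library (WT wildtype, KO Eppk1-/-). Granular keratinocytes hold 84.4% and 80.05% of Wfdc21 and infundibular cells 63.2% and 67.8% of Defb6, while Pglyrp1 (50 and 69 UMIs) and Lcn2 (119 and 52 UMIs) lie largely outside keratinocyte stages.

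Pglyrp4, a secreted protein of epithelia that binds bacterial peptidoglycan, was highest in the infundibulum, at 329 CPM (312 to 347) in wildtype against 373 CPM (351 to 396) in Eppk1-/- cells. The latest keratinocytes came next in the wildtype, at 213 CPM (184 to 245), followed by granular keratinocytes at 117 CPM, the mixed sub-cluster 11 at 106 CPM and sub-cluster 2 at 96.5 CPM. In the Eppk1-/- library the latest cells (124.5 CPM), sub-cluster 2 (118 CPM) and granular cells (112 CPM) did not differ beyond their counting error. Unlike Defb6, Pglyrp4 was low in sub-cluster 7, at 6.11 and 8.43 CPM, close to the fibroblast level of 4.16 and 3.99 CPM. Over all keratinocytes it was at 91.4 and 92.3 CPM, a log2 ratio of 0.01 (−0.06 to 0.09). The classes differed in sign around this value. The ratio was 0.18 (0.07 to 0.30) in the infundibulum, where the thinned shares of positive cells were 38.5% and 44.0%. It was 0.25 (0.00 to 0.51) in spinous and −0.06 (−0.22 to 0.09) in granular cells. In the 51 wildtype and 34 Eppk1-/- latest keratinocytes it was −0.77 (−1.17 to −0.39), from 197 and 77 UMIs. Sebocytes, the lipid-producing cells of the sebaceous gland, had 30.5 CPM in 14 positive wildtype cells and 68.4 CPM in 36 positive Eppk1-/- cells, a ratio of 1.15 (0.66 to 1.70). The sebocytes of the Eppk1-/- library were also deeper, with a median of 12762 UMIs against 6163.

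Pglyrp1, a bactericidal protein stored in neutrophil granules, gave 119 UMIs in all. Wildtype keratinocytes held 7 of them and Eppk1-/- keratinocytes 9, less than 1 CPM in each. T and NK cells held 8 and 22 UMIs, or 15.8 and 55.3 CPM, a log2 ratio of 1.76 (0.59 to 3.19). All of these UMIs were in 1 of the 2 T and NK clusters, which was led by Icos, Il2ra and Ccr8, genes of activated and regulatory T cells, and held 29.6 and 85.0 CPM in 6 and 11 positive cells. Endothelial cells held 10 and 4 UMIs, or 39.5 and 17.8 CPM, with an interval of the ratio from −3.28 to 0.64. An unnamed cluster led by Ighm, Lyz1 and Il1b held 7 and 16 UMIs in 7 and 11 cells. Fibroblasts held 8 and 8, as did an unnamed cluster led by Pla1a and Efhd1. Pglyrp3, a relative of Pglyrp4 that is not among the 7 genes, was at 89.6 and 77.1 CPM in keratinocytes.

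Wfdc21, a small WAP-domain protein, had a larger share of its UMIs in a single class than any other of the 7 genes. Wildtype granular keratinocytes held 690 CPM (673 to 708) and Eppk1-/- ones 783 CPM (758 to 809), and with them 84.4% and 80.05% of all Wfdc21 UMIs. The latest keratinocytes followed at 349 and 294 CPM. Spinous keratinocytes, the stage just before, held 3.16 and 5.29 CPM, which is at the fibroblast level of 4.75 and 4.20 CPM. The step from spinous to granular cells was therefore larger for Wfdc21 than for Defb1, Defb6 or Pglyrp4, each measured against its own spinous level. It was seen in only part of the granular class. Wfdc21 was present in 142 of the 349 wildtype granular cells and 75 of the 201 Eppk1-/- ones, against 331 and 177 for Defb1, and a positive cell held a median of 24 UMIs in both libraries.

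The Wfdc21 log2 ratio was 0.18 (0.12 to 0.24) in granular and −0.24 (−0.52 to 0.02) in the latest keratinocytes. The thinned shares of positive granular cells were 27.8% and 27%. The ratio over all keratinocytes, −0.10 (−0.15 to −0.04), had the opposite sign from that in granular cells. Granular cells were 349 of 5504 wildtype and 201 of 4057 Eppk1-/- keratinocytes. With the sub-clusters of both libraries weighted by wildtype cell shares the ratio over all keratinocytes was 0.22. That weighting also gives deep sub-clusters less weight, and the part of cell numbers in the change was not tested. In the infundibulum Wfdc21 was at 67.2 and 99.9 CPM, a ratio of 0.57 (0.33 to 0.81). This value rested on 32 and 26 positive cells, of which the 5 highest held 55.7% and 77.2% of the UMIs, and it became −0.34 without them.

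Slpi, a WAP-domain inhibitor of neutrophil elastase with antimicrobial activity, was found in few cells, most of which held 1 or a few UMIs while a small number held many. The median over positive keratinocytes was 1 UMI in both libraries, and the highest cell held 102 and 63 UMIs. Granular keratinocytes held 73.4 CPM (wildtype) and 76.0 CPM (Eppk1-/-), a log2 ratio of 0.05 (−0.14 to 0.24). These came from 75 and 53 positive cells, of which the 5 highest carried 51.8% and 51.7% of the UMIs. In both libraries most of its UMIs were granular, 59.2% and 56.7%. In the infundibulum the libraries were apart, with 68.8 wildtype CPM (296 UMIs) against 18.3 Eppk1-/- CPM (53 UMIs), a ratio of −1.90 (−2.36 to −1.48). Of the 296 UMIs, 172 were in 3 cells and 89 in 1. The 5 highest cells held 70.6% of the wildtype and 58.5% of the Eppk1-/- UMIs, and without them the ratio stayed under 0. At 2000 UMIs per cell, 2.28% of wildtype and 2.20% of Eppk1-/- infundibular cells held Slpi. The summed levels and the shares of positive cells thus gave different pictures. Over all keratinocytes Slpi was at 26.9 and 18.1 CPM, a ratio of −0.57 (−0.74 to −0.41), which became 0.03 when each cell was given the same weight.

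Slpi also appeared outside keratinocytes. An unnamed cluster led by Ighm, Lyz1 and Il1b held 12.2 CPM in wildtype (14 UMIs in 5 cells) against 78.9 CPM in Eppk1-/- skin (124 UMIs in 15 cells), a ratio of 2.64 (1.89 to 3.60). Fibroblasts held 1.78 and 1.54 CPM, and T and NK cells no UMI. The summed level of 7 neutrophil markers in that cluster was 69.1 wildtype CPM and 13.4 Eppk1-/- CPM, with 2 and 5 of the 7 at 0. Their part in the Slpi values was not tested.

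Lcn2, which binds the iron carriers of bacteria, gave 119 wildtype UMIs and 52 Eppk1-/- UMIs. Endothelial cells held 45 and 40 of them, or 178 CPM in both, with a log2 ratio of 0.00 (−0.65 to 0.65). They lay in 9 wildtype and 4 Eppk1-/- cells, and 28 of the 40 were in 1 cell. Sebocytes held 35 UMIs in 18 wildtype cells and 3 UMIs in 2 Eppk1-/- cells, a ratio of −3.73 with a wide interval of −6.28 to −2.27. Of all genes with at least 50 UMIs in sebocytes, 6.55% were higher and 23.6% lower by at least 0.5. Keratinocytes held 36 and 3 UMIs, and the wildtype value rested mainly on 2 cells, a bulge cell with 21 UMIs and an infundibular cell with 11. Infundibular cells held 12 and 0 UMIs, the latter of which allows up to 1.04 CPM. The 7 neutrophil markers summed to 81.6 CPM in the wildtype sebocytes against 62.4 CPM in the others, and to 6.87 and 4.85 CPM in keratinocytes, with 2 and 3 of the 7 at 0 in the latter. Their part in the Lcn2 values was not tested.

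**Figure D4:**
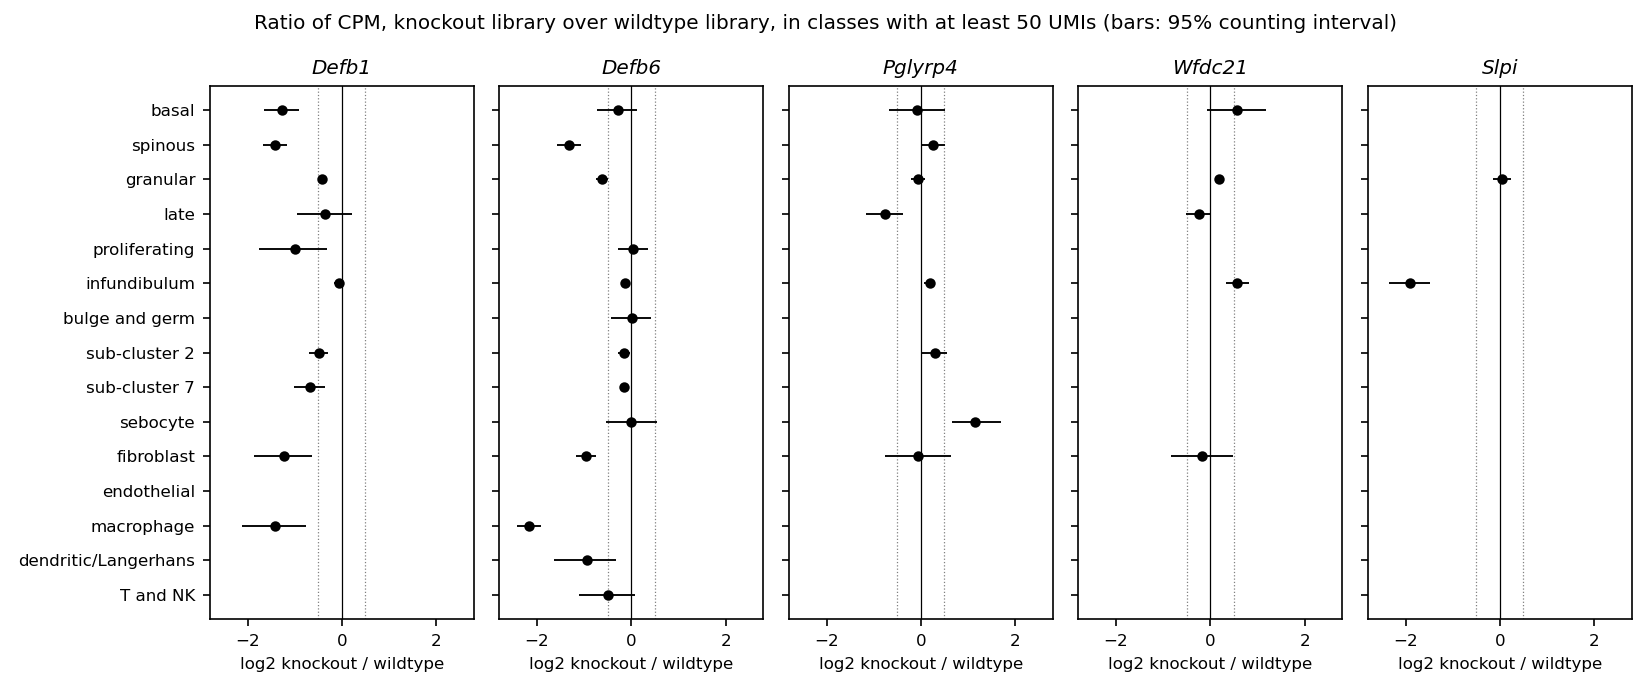
The log2 ratio of CPM, Eppk1-/- over wildtype, by cell class for the 5 genes with enough UMIs, with 95% counting intervals as bars and dotted lines at 0.5 in either direction; classes with under 50 UMIs of a gene are left blank. Defb1 lies under 0 in the spinous class (−1.41) and near it in the infundibulum (−0.06), and Slpi lies at −1.90 in the infundibulum and 0.05 in granular cells.

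A gene was counted as higher or lower when it had at least 50 UMIs over both libraries and a log2 ratio of at least 0.5 in that direction. In keratinocytes 5 of the 7 genes had 50 UMIs, and 0 were higher and 2 lower (Defb1 and Slpi). Of all 11764 genes with 50 UMIs, 2.99% were higher and 4.69% lower by the same rule. In spinous keratinocytes 3 had enough UMIs and 2 were lower (Defb1 and Defb6), with 3.17% of all genes higher and 4.03% lower. In basal keratinocytes Wfdc21 was higher, with an interval that includes 0 (−0.07 to 1.19), and Defb1 was lower, among 4 with enough UMIs and beside 3.96% and 3.6% of all genes. In granular keratinocytes 1 of 5 was lower (Defb6), beside 3.15% of genes higher and 5.09% lower. In the infundibulum Wfdc21 was higher and Slpi lower, beside 3.9% and 4.33%. In sub-cluster 7 Defb1 was the lower 1 of 2, beside 5.23% and 8.09%. In the latest keratinocytes 1 of 3 was lower (Pglyrp4), beside 10.4% of genes higher and 11.2% lower. Because the genes were chosen on these values, nothing is read from how their counts compare with these shares.

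Other antimicrobial and protease inhibitor genes of skin were looked at as a list of 43, of which 26 had at least 50 UMIs in keratinocytes. Of these, 2 were higher and 8 lower, beside 2.99% and 4.69% of all genes, with a median log2 ratio of −0.22 against −0.02 over all genes. This list too was chosen with earlier results of these data known, so nothing is read from the counts. The higher ones were Retnla, a resistin-like antimicrobial protein, at 15.7 and 60.5 CPM (ratio 1.94), and the lysozyme gene Lyz1, at 41 and 96 UMIs (1.78). Retnla was also a leading gene of a macrophage cluster at resolution 1, and Lyz1 of the unnamed cluster with Ighm and Il1b. Cells named macrophages numbered 352 in wildtype and 639 in Eppk1-/- skin. An unnamed cluster led by Fcna and Lyve1, with 9 of 9 macrophage markers detected, had 244 and 228 cells. Macrophage markers in keratinocytes summed to 69.7 and 64.0 CPM. The part of RNA from such cells in both ratios was not tested. Among the lower ones were Wfdc17 (−1.37), Wfdc3 (43.7 and 17.4 CPM, −1.33), the peptidoglycan-cleaving amidase gene Pglyrp2 (−0.94) and Sprr2d, a precursor of the cornified envelope (62.9 and 33.7 CPM, −0.90). Wfdc3 was a leading gene of an unnamed keratinocyte sub-cluster led by Krt75, which had 61 wildtype but 11 Eppk1-/- cells. Granular cells held only 2 and 6 of its UMIs and infundibular cells 7 and 7. The part of cell numbers in its ratio was not tested. The inducible β-defensin Defb14 was at 9.69 and 5.54 CPM, a ratio of −0.80 (−1.10 to −0.52). In the infundibulum it ran the other way, at 7.90 and 14.2 CPM (34 and 41 UMIs), a ratio of 0.84 (0.15 to 1.54). In granular cells its ratio was −0.45, with an interval that includes 0 (−1.30 to 0.29). The part of cell numbers in the Defb14 ratio was not tested. A few others were scarce. Camp, the cathelicidin gene, gave 1 and 0 UMIs, Defb3 16 and 9 and Defb4 13 and 5. S100a8 gave 35 and 27 UMIs, while its partner S100a9 was at 5.31 and 3.35 CPM, a ratio of −0.66.

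Receptors, adaptors and transcription factors that are known to switch on antimicrobial genes formed a second list. Of 33 measured, 28 had at least 50 UMIs in keratinocytes, and 0 were higher and 1 lower, beside the 2.99% and 4.69% of all genes given above. Their median log2 ratio was −0.03 against −0.02 over all genes. The lower 1 was Cebpd, a C/EBP transcription factor, at 110 and 72.4 CPM (−0.60). The next were Il10rb, a subunit of the IL-22 receptor (−0.48), the epithelial factor Elf3 (26.5 and 19.8 CPM, −0.42), the flagellin receptor Tlr5 (0.33), Grhl3 (−0.29) and Ehf (−0.22). Beside the shares of all genes given above, 1 of 8 wound and inflammation genes was higher (Il24) and 3 were lower. The lower ones were the wound keratin gene Krt6a, at 292 and 177 CPM (−0.72), S100a9 and Il1b (−0.51). Krt6a was also a leading gene of a keratinocyte cluster led by Krt24 (520 wildtype and 280 Eppk1-/- cells) and of one led by Krt75 (62 and 12 cells). The part of cell numbers in the Krt6a ratio was not tested. Of 13 genes that tissue dissociation induces, 0 were past 0.5, and their median was −0.11. Macrophage markers summed to 69.7 and 64.0 CPM in keratinocytes, and T and NK markers to 68.1 and 67.4 CPM.

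**Figure D5:**
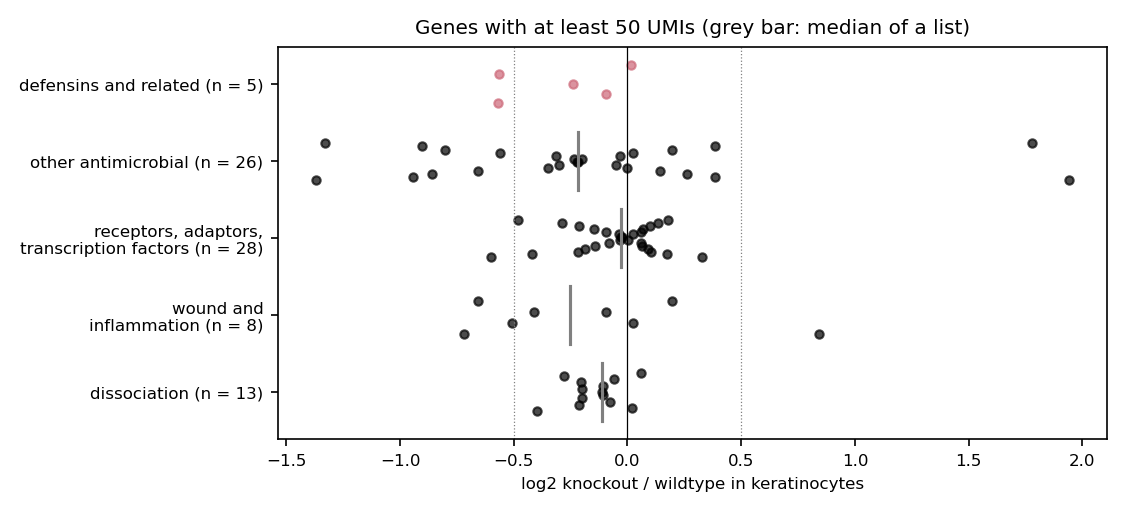
The log2 ratio in keratinocytes, Eppk1-/- over wildtype, of each gene with at least 50 UMIs, 1 point per gene, for the defensins and related genes (red, 5) and for the 4 lists of other genes, with grey bars at list medians and dotted lines at 0.5 in either direction. The other antimicrobial genes spread from −1.37 (Wfdc17) to 1.94 (Retnla), and their inducers lie between −0.60 (Cebpd) and 0.33 (Tlr5).

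The distribution of each gene over 24 cell classes in both libraries, 47 points in all, was set beside that of 12282 other genes by Pearson's correlation of log2(CPM + 1). This is a description, since the points share libraries and depth. Wfdc21 was most like Sdr9c7 (r = 0.92), Serpina12 (0.91) and Alox12b (0.91). Sdr9c7 and Alox12b encode enzymes of the epidermal lipid barrier. Defb6 was most like Alox12e (0.86), Cst6 (0.83) and Skint3 (0.82), and Pglyrp4 most like Il1f5 (0.85), Csnk2a2 (0.84) and Ephx3 (0.82). Defb1 was most like Ehf (0.81), an epithelial transcription factor, and then Elovl1 (0.78) and Kctd11 (0.78). Slpi had the loosest match, Ceacam19 (0.74), followed by Cldn23 (0.68) and Pglyrp3 (0.68). The scarce genes pointed elsewhere, Pglyrp1 to Dennd3 (0.82), Gimap6 (0.81) and Pecam1 (0.81), and Lcn2 to the endothelial genes Cldn5 (0.86), Gpihbp1 (0.82) and Ccl21a (0.82). Among the 7 themselves, Pglyrp4 and Wfdc21 were the closest pair (0.76), followed by Defb1 with Pglyrp4 (0.65) and with Defb6 (0.64).

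Both defensins were present together, at 2000 UMIs per cell, in 34.2% and 29.4% of infundibular cells and in 21.7% and 14.5% of the cells of sub-cluster 7. In sub-cluster 7 of the wildtype, 81.1% of the 74 cells with Defb1 also had Defb6, against 42.1% of cells without Defb1. In the Eppk1-/- library it was 91.3% of 23 cells against 39.3%. In the infundibulum the shares lay closer together, at 74.1% against 66.5% in the wildtype and 72.3% against 55.6% in the Eppk1-/- library. In sub-cluster 2 they were 30.5% against 23.6% in the wildtype, and the order was the other way in the Eppk1-/- library, at 19.5% against 22.5%.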

How the data were processed

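Single-cell RNA was measured in skin of 1 wildtype and 1 Eppk1-/- mouse. The authors deposited raw UMI counts per gene and cell (mm10, Cell Ranger 8.0.1). The study's cell filters were applied, that is a UMI total of 200 to 45000, a gene number of 100 to 7500 and no more than 10% of mitochondrial UMIs, and 13 mitochondrial genes were removed. Clusters came from R 4.3.3 and Seurat 5.3.0 (normalization to 10000, 2000 variable features without the 7 genes and Eppk1, 50 principal components, RPCA integration, Louvain resolution 0.5), and keratinocytes were clustered again. A class was named only where at least 3 of its markers were detected in at least 25% of its cells. It stayed unnamed where another type had markers among its 10 leading genes in at least equal number. The same held where over 95% of its cells came from 1 library. Keratinocyte sub-clusters also needed most of the markers on the list detected and their mean raised over the other sub-clusters. How markers were scored was set after the clusters were seen. The methods of the study differ in using SCTransform.

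UMIs were summed per library and class and given as CPM with exact Poisson intervals. Log2 ratios took 0.5 UMIs as prior, with exact conditional intervals at the 95% level. Shares of cells were taken after thinning to 2000 UMIs, and a count of 0 allows up to 3 counts. With 1 library per genotype no test was made and no p-value is given. How far mice of a genotype differ is unknown. The 7 genes and all lists were chosen with earlier results of these data known. Named were all 7 genes, for the antimicrobial list at most the 6 largest ratios past 0.5 plus 6 fixed genes, the 6 largest of the inducers, and the 3 most alike genes of each; further genes were named after their values were seen. Python 3.11.15, numpy 2.4.6, pandas 2.3.3, scipy 1.17.1, scanpy 1.11.5 (Scrublet, expected rate 0.06) and edgeR 4.0.16 (TMM factors only) were used. The threshold chosen by Scrublet marked 217 Eppk1-/- but only 2 wildtype cells, for which the top 5% of scores (456 cells) were used instead. Doublets were left out only as an alternative. Coordinates and sequences came from GENCODE M21 on GRCm38. The script was tested on simulated counts. Alternatives were a resolution of 1, a marker gate per cell, TMM scaling, a mean over cells, thinning, stricter cells (1000 UMIs and 500 genes), doublet removal, and weighting of sub-clusters. Removal of the 5 highest cells per library, of shared droplets and of 2 unnamed sub-clusters was added after seeing the data.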

Additional observations from a re-analysis of the deposited data

Results flagged for a closer look

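Some class ratios of a gene lay beyond 0.5 in opposite directions, each with a counting interval that does not include 0. None of these differences between classes was tested, and each class is 1 library per genotype.

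Defb6 had a log2 Eppk1-/- over wildtype ratio of 1.89 in cluster 10, an unnamed cluster led by Fcna, Lyve1 and Ccl4, against −1.32 in spinous and −0.62 in granular keratinocytes, −0.95 in fibroblasts, −0.62 in cluster 3 (led by Pla1a and Efhd1), −1.18 in cluster 11 (led by Ighm, Lyz1 and Il1b), −0.95 in dendritic and Langerhans cells, −2.17 in macrophages and −5.65 in mast cells. The value in cluster 10 rested on 55 Eppk1-/- UMIs in 5 cells, 42 of them in 1 cell, and it became −2.04 without doublets. Leaving out the 5 highest cells of each library removes every Eppk1-/- UMI there. The resulting −3.27 is therefore set by the prior and says nothing about the remaining cells. The value in dendritic and Langerhans cells became 0.56 without doublets, and that in macrophages −0.20 and in mast cells −0.39. Doublet removal took 456 wildtype and 217 Eppk1-/- cells by unlike rules, and its part in these changes was not tested.

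Pglyrp4 had a ratio of 1.15 in sebocytes and −0.77 in the latest keratinocytes. Slpi had a ratio of 2.64 in cluster 11 and −1.90 in the infundibulum. Many genes were past 0.5 in some of these classes, among genes with at least 50 UMIs there. In cluster 10, 7.47% of genes were higher and 30.8% lower, and in cluster 11 3.32% and 25.6%. In sebocytes 6.55% were higher and 23.6% lower, in macrophages 6.87% and 13.2%, and in the latest keratinocytes 10.4% and 11.2%.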

How the results depend on the processing

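No ratio here has a test, so an alternative counts as a move when it leaves the counting interval. In keratinocytes Slpi, at −0.57, turned to 0.033 as a mean over cells and 0.079 when thinned. As a mean over cells the ratio was −0.70 for Defb1, −0.39 for Defb6, 0.10 for Pglyrp4 and −0.25 for Wfdc21. When thinned it was −0.34 for Defb6, 0.10 for Pglyrp4 and −0.18 for Wfdc21. Without the 5 highest cells of each library it was −0.63 for Defb1, −0.32 for Defb6 and −0.28 for Wfdc21. For Lcn2 those cells held 35 of the 36 wildtype UMIs and all 3 Eppk1-/- UMIs. Its value of −1.02 is therefore set by the prior. Without cells of shared droplets it was −0.27 for Defb6 and −0.032 for Wfdc21, and with a marker gate (5788 and 4293 cells) −0.27 for Defb6. With sub-clusters weighted in both libraries by wildtype cell shares it was −0.46 for Defb1, −0.16 for Defb6, 0.12 for Pglyrp4 and 0.22 for Wfdc21. The causes were not tested. With no UMI minimum 24.3% of 15712 genes were past 0.5, against 7.68%.

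Of 350 class ratios under 7 alternatives, 264 stayed within their interval, 78 moved and 8 turned. Doublet removal, by unlike rules in the 2 libraries, turned Defb6 in T and NK cells (1.17), in cluster 10 (−2.04) and in dendritic and Langerhans cells (0.56). Leaving out the 5 highest cells turned Defb1 in cluster 11 (0.012) and Wfdc21 in the infundibulum (−0.34). For Wfdc21 there, a mean over cells and thinning gave −0.19 both times. Defb6 in cluster 10 also turned (−3.27), but with no Eppk1-/- UMI left, so that this turn was fixed in advance. In cluster 11 the cells left out held 93.3% of the wildtype and 88.5% of the Eppk1-/- Defb1 UMIs. Depth limits Pglyrp1 and Lcn2, with 119 and 171 UMIs in all. No paired analysis was possible because each genotype has 1 library.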
